A study of Homo sapiens with 3 samples.

Results

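The DENN domain and Rab GTPase genes were taken by symbol from RefSeq (GRCh38): every protein-coding gene whose symbol begins with DENND, and every one named RAB plus a number and an optional letter. This gave 80 of the 19974 protein-coding genes on chromosomes 1 to 22 and X, of which 17 were DENND and 63 were RAB genes. FOXM1, a forkhead transcription factor, was immunoprecipitated with the antibody G-5 from Huh7, an established hepatocellular carcinoma cell line that received no treatment, and the recovered DNA was sequenced (ChIP-seq). The peaks called in 2 such libraries, numbered replicate 2 and replicate 3, were used, and the input library of the series entered no comparison. The labels do not say that the libraries came from separate cultures, and no library of another antibody or of cells without FOXM1 was used, so the antibody's specificity was not tested. A gene was counted where a peak's summit lay inside it or within 5 kb of it. The gene set was selected on the peak calls and fold enrichments of these same 2 lists, so all counts below are descriptions and no test is attached to them.

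Rab proteins are small GTPases that mark membrane compartments and recruit the machinery for budding, transport and fusion of vesicles. They are active when bound to GTP, and guanine nucleotide exchange factors load them with it. DENN domain proteins are a large class of such exchange factors, and each is known mainly for one Rab or Rab pair. In liver cells these pathways carry secretion of plasma proteins, receptor recycling and autophagy.

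For 4 genes both summits fell inside the 300 bases, 250 before and 50 after an annotated start, that RefSeq promoter sequences cover: DENND1A, DENND11, RAB6A and RAB11A. Their sequences are shown because the peaks sit on them. DENND2A is shown as well. Of the 24 genes with both a shared locus (defined below) and a promoter sequence, its promoter alone held the forkhead letters TAAACA on either strand. Each runs 5′ to 3′ on the gene's own strand (GRCh38.p14), from 250 bases before the start to 30 bases after it. Capitals mark matches to 8 motifs searched on both strands, listed further below. The windows are chr9:123930097-123930376 (minus strand) for DENND1A, chr7:141702137-141702416 (minus) for DENND11, chr11:73761045-73761324 (minus) for RAB6A, chr15:65869241-65869520 (plus) for RAB11A and chr7:140640784-140641063 (minus) for DENND2A.
DENND1A: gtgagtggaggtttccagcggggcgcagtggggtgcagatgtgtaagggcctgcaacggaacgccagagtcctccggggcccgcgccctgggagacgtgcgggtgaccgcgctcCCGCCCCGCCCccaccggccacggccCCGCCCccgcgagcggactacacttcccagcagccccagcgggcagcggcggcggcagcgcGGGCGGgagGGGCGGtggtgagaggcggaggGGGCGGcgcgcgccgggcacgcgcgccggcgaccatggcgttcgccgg
DENND11: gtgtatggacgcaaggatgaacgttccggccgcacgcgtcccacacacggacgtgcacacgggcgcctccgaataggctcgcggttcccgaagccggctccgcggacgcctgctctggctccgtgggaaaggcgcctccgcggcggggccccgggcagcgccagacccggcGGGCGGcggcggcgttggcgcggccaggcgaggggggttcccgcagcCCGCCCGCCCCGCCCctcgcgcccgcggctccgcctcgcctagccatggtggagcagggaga
RAB6A: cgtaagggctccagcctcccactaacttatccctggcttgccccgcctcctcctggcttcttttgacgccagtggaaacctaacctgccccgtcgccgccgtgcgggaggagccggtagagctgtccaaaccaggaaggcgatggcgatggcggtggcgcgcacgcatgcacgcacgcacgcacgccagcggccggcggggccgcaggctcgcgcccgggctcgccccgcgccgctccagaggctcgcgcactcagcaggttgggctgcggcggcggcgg
RAB11A: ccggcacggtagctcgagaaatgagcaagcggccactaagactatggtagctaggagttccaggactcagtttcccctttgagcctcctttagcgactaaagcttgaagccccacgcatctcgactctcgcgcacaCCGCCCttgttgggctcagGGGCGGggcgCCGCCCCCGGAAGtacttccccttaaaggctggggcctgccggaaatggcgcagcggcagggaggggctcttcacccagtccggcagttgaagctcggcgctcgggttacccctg
DENND2A: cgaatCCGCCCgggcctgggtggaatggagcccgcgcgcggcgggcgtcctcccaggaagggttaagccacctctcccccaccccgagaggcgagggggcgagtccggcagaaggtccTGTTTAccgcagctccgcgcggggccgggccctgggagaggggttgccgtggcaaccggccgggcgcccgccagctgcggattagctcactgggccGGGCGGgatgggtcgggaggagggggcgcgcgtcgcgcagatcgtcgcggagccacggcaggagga

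In DENND1A the summits lay 57 bases before the start in replicate 2 and 90 bases before it in replicate 3, among 6 GC boxes (GGGCGG on either strand). In DENND11 they lay 159 and 23 bases before the start, the second on a cluster of 3 GC boxes whose first bases are 32, 28 and 23 bases before it. In RAB6A, where none of the 8 motifs was found in the printed window, they lay 9 and 18 bases before the start. In RAB11A they lay 7 bases after the start in replicate 2 and 193 bases before it in replicate 3, with 3 GC boxes and an ETS match between them. The forkhead match of DENND2A began 132 bases before the start, and the summits lay 2 bases before and 118 bases after that start. Whether FOXM1 contacts any of these letters was not tested.

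Peaks were found at 36 of the 80 genes in replicate 2 (45.0%) and at 44 in replicate 3 (55.0%), against 33.3% and 41.3% of all protein-coding genes. Either library had a peak at 49 genes, against 46.2% of all genes. Where peaks of the 2 libraries overlapped by at least 1 bp they were merged into a shared locus, which takes its fold and summit in each library from that library's highest peak. A gene was given the locus when both of these summits lay within its window. Of the 80 genes 27 had a shared locus (33.75%), against 25.5% of all protein-coding genes. The families differed: 10 of 17 DENND genes had one (58.8%) and 17 of 63 RAB genes (27.0%), so the RAB share lay near that of all genes. The difference between the families was not tested. With the summits of the 2 libraries required to lie within 100 bp, 3 of 17 DENND genes (17.6%) and 7 of 63 RAB genes (11.1%) were left, together 12.5% of the 80, against 15.6% of all genes, so the 80 genes together and the RAB genes then lay below all genes. Of the remaining genes, 4 had unshared peaks in both libraries (5.0% of the 80) and 5 had a peak in replicate 2 alone (6.25%). A further 13 had one in replicate 3 alone (16.25%) and 31 in neither (38.75%). Over all protein-coding genes these shares were 2.97%, 4.87%, 12.87% and 53.78%, in the same order.

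**Figure D1:**
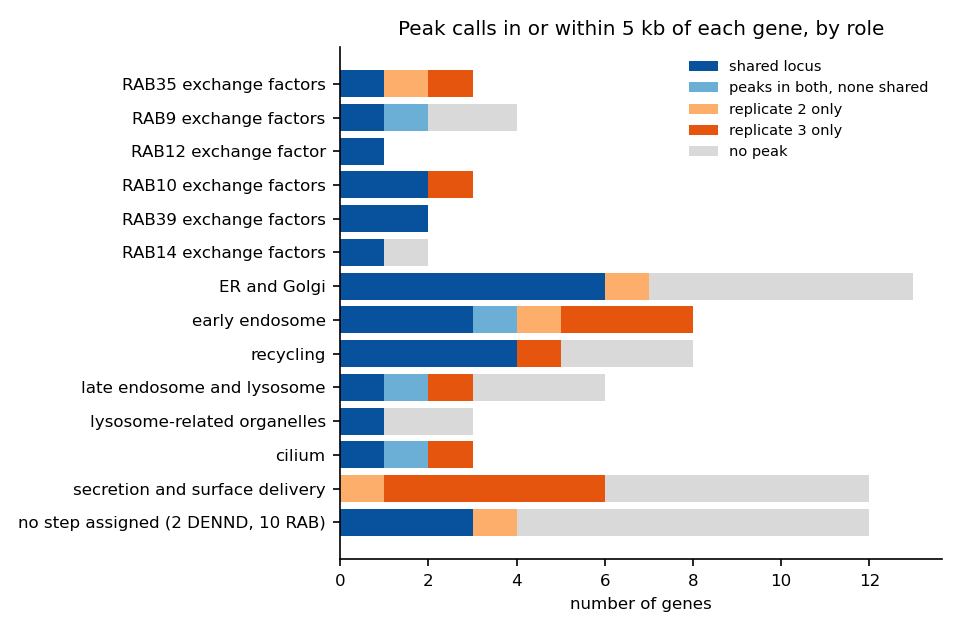
Number of DENND and RAB genes (x axis) by peak call, for each role (y axis); dark blue marks genes with a shared locus and grey those with no peak in either library. Shared loci range from both RAB39 exchange factor genes to none of the 12 Rabs of secretion and surface delivery, beside 25.5% of all protein-coding genes, and most groups hold few genes.

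Gene length, which gives a summit more room, differed between the families: the median was 87.2 kb for DENND genes and 30.01 kb for RAB genes, against 24.2 kb for all protein-coding genes. Among genes of 100 kb or more, 5 of 8 DENND genes (62.5%) and 2 of 8 RAB genes had a shared locus, against 31.9% of all such genes. Among genes of 30 to 100 kb it was 3 of 5 DENND genes and 8 of 24 RAB genes (33.3%), against 27.7%. Among genes of 10 to 30 kb it was 2 of 4 DENND genes and 4 of 18 RAB genes (22.2%), against 25.15%. With the locus required to lie within 1 kb of an end of the gene, 10 of 17 DENND genes (58.8%) were counted. For RAB genes it was 15 of 63 (23.8%), and for all protein-coding genes 18.8%. The 10 were every DENND gene with a shared locus, while over all protein-coding genes 3763 of 5094 kept one.

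Each peak carries the authors' own fold enrichment, a linear ratio over the local background at the summit, and a −log10 q. Among the exchange factors, the highest locus by the lower fold of the 2 libraries was at DENND5A, which acts on RAB39 and binds RAB6. Fold was 5.34 in replicate 2 and 4.97 in replicate 3 (chromosome 11, 9264749 to 9265235), with summits 148 and 296 bp downstream of the nearest annotated start. It ranked 163 among the 5357 shared loci of the series. Replicate 3 had a further peak of fold 5.86 at DENND5A, 140 bp upstream of a start, which overlapped no peak of replicate 2. DENND1A, the exchange factor for RAB35 on clathrin-coated vesicles, had fold 5.04 and 4.90 (chromosome 9, 123929696 to 123930309). Its −log10 q values of 8.90 and 8.07 were higher than the 6.29 and 5.31 of DENND5A.

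DENND6B, an exchange factor for RAB14, had fold 4.73 in replicate 2 and 5.22 in replicate 3, with the summits on opposite sides of the start (199 bp upstream and 114 bp downstream). The RAB10 exchange factor genes DENND4C and DENND4B had fold 4.65 and 4.44, and 4.26 and 4.49. The third of that group, DENND4A, had a peak in replicate 3 alone, with fold 4.11 at 419 bp downstream of the start. DENND11 had fold 4.43 and 4.75. DENND5B, the second RAB39 exchange factor, had 4.05 and 4.17 at summits only 73 bp apart. The nearest annotated start differed between them: the replicate 2 summit lay 338 bp upstream of one, the replicate 3 summit 283 bp downstream of another. DENND2A, an exchange factor for RAB9, had 4.02 and 4.08.

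By the lower fold, the weakest DENND locus was at DENND10, with fold 3.42 in replicate 2 and 4.43 in replicate 3. It was the single DENND locus whose lower fold was below the median over all shared loci, 3.56. DENND2D had a peak in each library, of fold 5.15 in replicate 2 and 4.60 in replicate 3, but these did not overlap. DENND1B had a peak of fold 3.92 in replicate 2 alone, and DENND1C one of 3.25 in replicate 3 alone, 6418 bp into the gene. No peak was listed for DENND2B, DENND2C or DENND6A, which says only that the authors' threshold, near a q of 0.05, was not passed there.

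**Figure D2:**
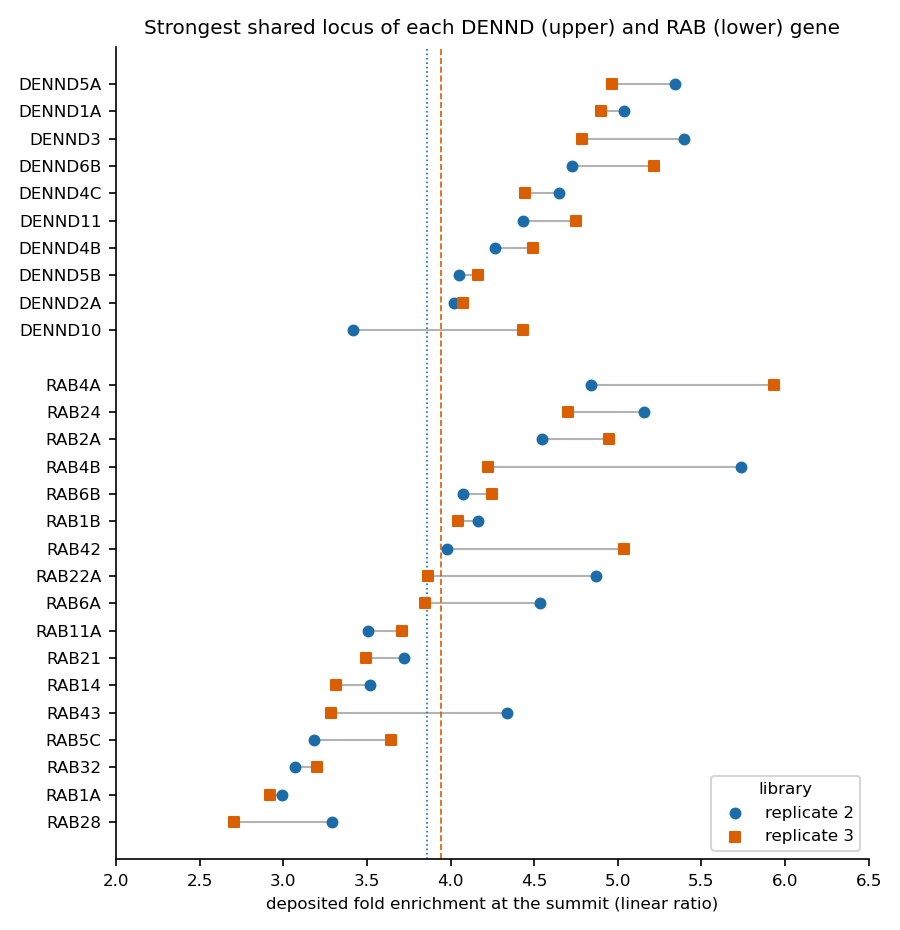
Deposited fold enrichment (x axis, linear ratio) at the strongest shared locus of each of 10 DENND and 17 RAB genes (y axis), with circles for replicate 2, squares for replicate 3 and vertical lines at the medians of all shared loci, 3.86 (dotted, replicate 2) and 3.94 (dashed, replicate 3). All DENND genes but DENND10 sit above both medians in both libraries, while RAB genes spread on either side.

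Over the 10 DENND loci the median fold was 4.54 in replicate 2 and 4.62 in replicate 3, and over the 20 RAB loci it was 3.85 and 3.68, against 3.86 and 3.94 over all shared loci. By the lower fold of the 2 libraries, 7 of the 10 DENND loci and 5 of the 20 RAB loci were among the 1340 highest of the 5357. No gene of either family had a shared locus with fold of at least 5 in both libraries, against 0.876% of all protein-coding genes. Fold was higher in replicate 2 at 15 of the 30 loci and higher in replicate 3 at 15.

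Each summit rests on few fragments. Their numbers, worked back from each peak's fold and p, had a median of 31.5 at DENND loci in replicate 2 and 27.5 in replicate 3, and 31 and 28 at RAB loci, against 27 and 27 over all shared loci. DENND5A rested on 24 fragments in replicate 2 (exact Poisson 95% interval 15.4 to 35.7) and 21 in replicate 3 (13.0 to 32.1), over local backgrounds of 3.0 and 2.88. Backgrounds are on the scale used for the fold, where counts were multiplied by 0.848 in replicate 2 and 0.869 in replicate 3. Counts as printed are not so scaled. DENND1A rested on 37 (26.05 to 51.0) and 34 (23.6 to 47.5). DENND1A had the more fragments and also the higher background, 5.43 and 5.23. The intervals cover counting error only and are for the counts, not for the fold, so the order of genes by fold was given no error.

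The Rabs of endosomal recycling had a shared locus at 4 of 8 genes, against 25.5% of all protein-coding genes, and 1 of the 4, RAB4B, was counted by a locus inside another gene. Ranked by the weaker of its 2 values, the leading RAB locus was in this group. RAB4A, which drives fast return of receptors to the surface, had fold 4.84 in replicate 2 and 5.93 in replicate 3, with summits 135 and 5 bp downstream of the start (chromosome 1, 229270905 to 229271529). The end of the antisense gene RAB4A-AS1 lay within 1 kb. RAB11A, the Rab of the recycling endosome, had 3.51 and 3.71. Its near relative RAB11B had no peak. RAB14, which acts between the Golgi and endosomes, had 3.52 and 3.31, 470 and 605 bp into the gene and also within 1 kb of an end of GSN, the gelsolin gene. RAB35 and RAB25 had no peak, and RAB15 had one in replicate 3 alone (fold 4.81).

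The locus counted for RAB4B lay nearer to another gene. It had fold 5.74 in replicate 2 and 4.22 in replicate 3, but its summits were 2403 and 2383 bp beyond RAB4B, inside EGLN2, a prolyl hydroxylase gene. At the RAB4B start itself, replicate 2 alone had a peak, of fold 2.91 at 50 bp upstream. The same held for RAB5C, an early endosome Rab: fold was 3.18 and 3.64 at summits 3915 and 3621 bp outside the gene, inside KAT2A, an acetyltransferase gene. To which gene such peaks belong was not tested.

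Of the 13 Rabs of the endoplasmic reticulum and Golgi, 6 had a shared locus (46.15%), against 25.5% of all protein-coding genes. RAB6B and RAB6A, Rabs of transport at the Golgi, had fold 4.07 and 4.25, and 4.53 and 3.85. RAB1B and RAB1A both serve transport from the endoplasmic reticulum to the Golgi. RAB1A had fold 2.99 in replicate 2, the lowest there of the strongest loci, and 2.92 in replicate 3, where RAB28 was lower, with −log10 q of 1.54 and 1.64 against lowest deposited values of 1.32 and 1.31. RAB43 had 2 shared loci, of fold 4.34 and 3.29, and 3.05 and 2.87, which also lay inside the readthrough gene ISY1-RAB43. RAB18 had a peak in replicate 2 alone (fold 2.81), and RAB2B, RAB30, RAB33A, RAB33B, RAB41 and RAB6C had none.

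RAB1B was the one gene with 3 shared loci (chromosome 11, 66267116 to 66278844). Fold was 4.16 and 4.05 at the locus beyond the gene's far end, which was within 1 kb of an end of CNIH2. It was 3.38 and 3.52 just after the start, 285 and 115 bp downstream, and 3.17 and 3.27 upstream of the start, 884 and 943 bp away. Both of these loci lay within 1 kb of an end of KLC2, a kinesin light chain gene. Fragment counts were the highest of all these genes, from 66 to 86 in replicate 2 and from 72 to 78 in replicate 3. The local background was high too, from 16.8 to 17.1 and from 16.0 to 19.0, against medians of 5.04 and 5.0 over all shared loci, and its part in these calls was not tested.

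**Figure D3:**
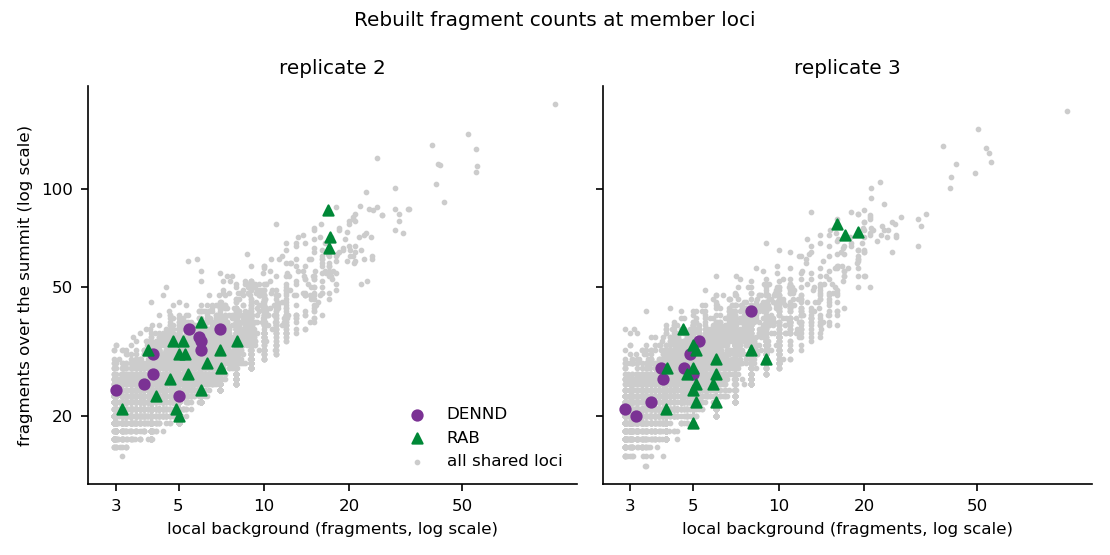
Rebuilt fragments over the summit, unscaled (y axis, log), against local background on the scale used for the fold (x axis, log, labelled fragments). Circles are DENND loci, triangles RAB loci and grey all 5357 shared loci, in each library. The 3 triangles at backgrounds of 16.0 or more are the loci of RAB1B, and the DENND loci lie between 2.88 and 8.0.

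Every one of the 8 early endosome Rabs had a peak in at least 1 library, against 46.2% of all protein-coding genes. A shared locus was found at 3 of the 8 (37.5%), RAB5C with its locus inside KAT2A among them, against 25.5%. RAB22A, which sorts cargo for recycling from early endosomes, had fold 4.87 in replicate 2 and 3.87 in replicate 3, 133 and 167 bp downstream of the start. RAB21, an endosomal Rab linked to integrin traffic, had 3.72 and 3.49. RAB5A, the best known regulator of early endosome fusion, had a peak in replicate 3 alone, of fold 3.03, and RAB5B one in replicate 2 alone, of fold 3.66. RAB20 had a peak in each library (4.53 in replicate 2 and 4.24 in replicate 3) that did not overlap. RAB17 (3.66) and RAB31 (3.12) had peaks in replicate 3 alone.

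Among the Rabs of late endosomes, lysosomes and autophagy 1 of 6 had a shared locus (16.7%), against 25.5% of all protein-coding genes, and 2 of the 6 lie on chromosome X, where that share was 4.36%. RAB24, linked to autophagy, had fold 5.16 in replicate 2 and 4.70 in replicate 3 (chromosome 5, 177303476 to 177303967), with summits 38 bp upstream and 181 bp downstream of the start. An end of PRELID1 lay within 1 kb of this locus. RAB7A, the main Rab of late endosomes, had 1 peak in replicate 2, of fold 3.90, and 2 in replicate 3, of 3.37 and 2.91. The replicate 2 peak lay 47093 bp downstream of the start and those of replicate 3 lay 207 and 471 bp downstream, so they were not shared. RAB7B and the RAB9 genes RAB9A and RAB9B had no peak.

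None of the 12 Rabs of regulated secretion and surface delivery had a shared locus, against 25.5% of all protein-coding genes, while 6 of the 12 had a peak in 1 library, against 46.2% of all genes with a peak in either. In replicate 2 only RAB10, which brings the glucose transporter GLUT4 to the surface in fat cells, had a peak (fold 3.78). In replicate 3 there were 5 with a peak: RAB26 (5.25 at 1678 bp outside the gene), RAB3D (3.79), RAB37 (3.49), RAB3B (3.12) and RAB8A (3.01). RAB3A, RAB3C, RAB8B, RAB13, RAB27A and RAB27B had none. This grouping of Rabs was set with earlier results known, and a difference from the other groups was not tested.

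In the smaller groups, RAB32, a Rab of melanosomes and mitochondria, had fold 3.07 in replicate 2 and 3.20 in replicate 3, while RAB29 and RAB38 had no peak. RAB28, a ciliary Rab, had 3.29 and 2.71, the lowest of the strongest loci in replicate 3 but not in replicate 2. RAB23, an inhibitor of hedgehog signalling, had a peak in replicate 3 alone (fold 3.35). RAB34, needed for cilia, had unshared peaks in both libraries. Of the genes with no step assigned, RAB42 had 3.98 and 5.04 and RAB40C had a peak in replicate 2 alone (fold 2.93), while RAB6D, RAB19, RAB36, RAB39A, RAB40B and RAB44 had none. The 6 genes on chromosome X (RAB9A, RAB9B, RAB33A, RAB39B, RAB40A and RAB41) had no peak, as was the case for 88.4% of all protein-coding genes on that chromosome.

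Exchange factors and the Rabs they load were compared as pairs. Of 15 DENND genes with an assigned Rab partner 8 had a shared locus, and of the 8 partner Rabs 1 did, against 25.5% of all protein-coding genes. The partners RAB9A, RAB9B and RAB39B lie on chromosome X, where 88.4% of all genes had no peak in either library. That was RAB14, whose exchange factor gene DENND6B also had one, the single such case among 21 pairs. RAB10 had a peak in replicate 2 alone and RAB12 had 2 in replicate 3 alone (fold 4.19 and 3.06). RAB35, RAB9A, RAB9B, RAB39A and RAB39B had no peak in either library.

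The exchange factor for RAB12, DENND3, had fold 5.40 in replicate 2 and 4.79 in replicate 3 (chromosome 8, 141128193 to 141128391), with summits 314 and 289 bp outside the gene. Its −log10 q was 8.17 and 5.97. Replicate 3 had 3 further peaks there, of fold 3.75 to 3.95, and replicate 2 had 1 of fold 2.67, none of which overlapped a peak of the other library. RAB2A, which acts in Golgi traffic and in delivery to lysosomes, had fold 4.55 and 4.95 (chromosome 8, 60516605 to 60517517), 180 and 196 bp inside the gene. Its relative RAB2B had no peak.

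Annotated starts from the RefSeq promoter table were matched for 27 of the 30 loci. At 24 of these 27 (88.9%) both summits lay within 1 kb of a start of the gene. Counted in the same way, over all protein-coding genes, it was 69.1% of 5272 pairs of a gene and a shared locus. A looser measure took each locus once, at its nearest start among the genes it was counted for. By that measure it was 80.5% of the 4178 shared loci with a matched protein-coding gene. All 9 DENND loci and 15 of 18 RAB loci had both summits within 1 kb of a start of their own gene. The other 3 were those of RAB4B and RAB5C and the CNIH2-side locus of RAB1B. The median distance of the farther summit was 321 bp, against 366 bp over the 5272 pairs and 274 bp with each locus measured once. Summits of the 2 libraries lay a median of 135 bp apart, against 92 bp over all shared loci, and within 100 bp at 11 of 30 loci (36.7%), against 52.9%. The loci were also wider, with a median of 527 bp, against 413 bp.

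**Figure D4:**
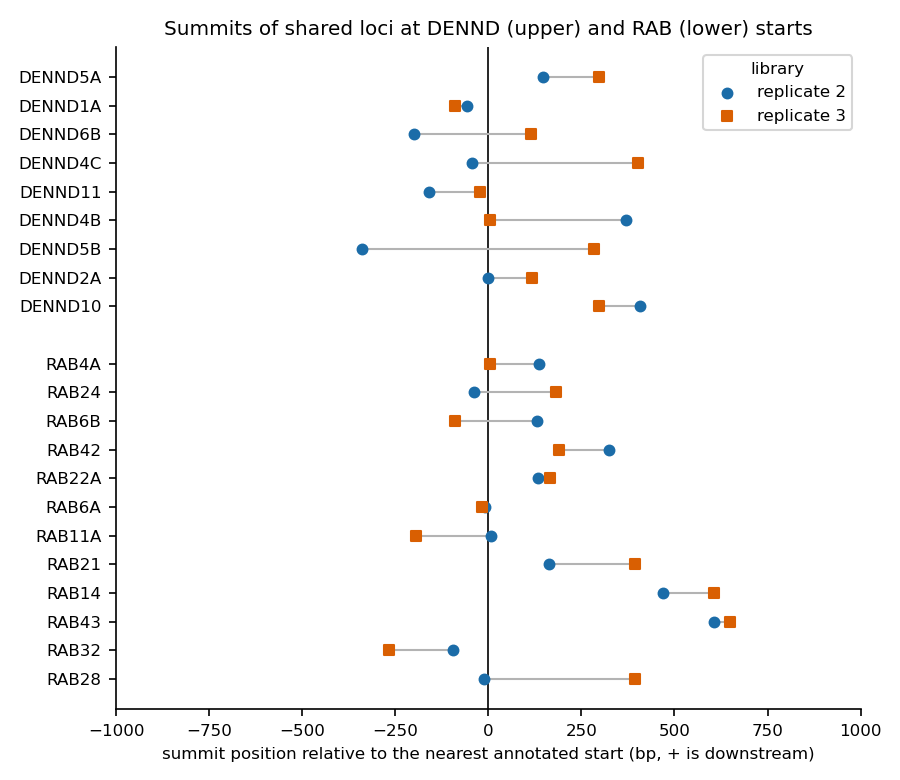
Summit position in bp (x axis, positive downstream of the nearest annotated start) for the strongest shared locus of 21 DENND and RAB genes (y axis) with both summits within 1 kb of a start; circles are replicate 2 and squares replicate 3. The summits of DENND1A, DENND11, RAB6A and RAB32 lie upstream of the start in both libraries, and those of DENND5A, DENND4B, DENND10, RAB4A, RAB42, RAB22A, RAB21, RAB14 and RAB43 lie downstream in both. Each summit is placed by the start nearest to it. For DENND5B and RAB6B that start differs between the libraries, so the drawn span is not the gap between summits, which was 73 bp and 256 bp.

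RefSeq promoters were matched for 66 of the 80 genes, with 97 starts. CpG dinucleotides per 300 bases had a median of 31 (quartiles 26 and 37.5) over 35 promoters of genes with a shared locus, and 17 (9.25 and 30.75) over 62 promoters of DENND and RAB genes without one. Over all protein-coding genes with a shared locus the median was 29, and over all promoters it was 21. Genes with a shared locus thus had the CpG-richer promoters in both comparisons, and the part of CpG content in the calls was not tested. The 35 promoters are all annotated starts of 24 genes, whether or not a peak lay at them. They include RAB4B and RAB5C, counted by loci inside other genes, and lack DENND3, RAB1A and RAB2A, which had no promoter sequence. This holds for the motif counts below too.

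The motifs searched in the 300 bases, on both strands, were the forkhead core TAAACA, the cell cycle homology region TTTGAA, the CCAAT box by its own letters, the GC box GGGCGG, the ETS site CCGGAAG, the E box CACGTG, the cAMP response element TGACGTCA and the NRF1 letters GCATGCGC. Matches of different motifs may overlap. The forkhead letters were in 1 of 35 promoters of DENND and RAB genes with a shared locus (2.86%) and in 7 of 62 without one (11.3%), against 9.52% of all protein-coding promoters and 6.95% of promoters of all genes with a shared locus. In the same order, the cell cycle homology region was in 8.57% and 16.1%, against 12.4% and 8.70%, so the first share was close to that of all genes with a shared locus. GC boxes were in 30 of the 35 promoters (85.7%) and in 64.5% of those without, against 56.3% of all promoters and 70.1% of promoters of all genes with a shared locus. ETS letters were in 7 of the 35 promoters and in 6.45% of those without, against 12.8% and 12.7%. CCAAT was in 2 of the 35 promoters (5.71%) and in 38.7% of those without, against 34.6% of all promoters and 30.5% of promoters of all genes with a shared locus. The E box was in 8.57% and 8.06%, against 8.34% and 9.35%. The cAMP response element and the NRF1 letters were in 0 of the 35 promoters and in 1.61% and 3.23% of those without, against 2.26% and 3.74% of all promoters and 2.47% and 3.24% of promoters of all genes with a shared locus. Several starts of one gene share sequence, and a match is only a match of letters.

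The rest of the Rab machinery was covered by a list of 111 other genes. Of these 44 had a shared locus (39.6%), against 25.5% of all protein-coding genes, and their median length was 59.5 kb. Of 35 TBC domain genes, whose products switch Rabs off, 17 had one (48.6%): TBC1D9B led with fold 5.12 in replicate 2 and 5.07 in replicate 3, followed by EVI5L (5.59 and 4.56) and GRTP1 (4.47 and 4.82). Of 19 exchange factors of other kinds 9 had one (47.4%), led by RIC1 (4.23 and 4.44), part of the RAB6 exchange factor, and ANKRD27 (4.195 and 4.612), which acts on RAB21. Of 11 further DENN domain genes 5 had one (45.5%), led by MADD, a RAB3 exchange factor (4.13 and 4.82), and SBF1 (3.78 and 4.52). Of 37 effector genes 11 had one (29.7%), led by EEA1, the tether of early endosomes (5.26 and 4.64). Of 9 genes for Rab escort, GDI and prenylation 2 had one (22.2%), CHML (4.29 and 4.80) and RABGGTA (3.42 and 4.42). Both loci also lay inside another coding gene, OPN3 for CHML and NOP9 for RABGGTA. Some genes of the list were counted by a locus outside them. For TBC1D10A the summits lay 2640 and 2397 bp outside, inside CASTOR1.

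Settings that alter the counts are shown together because the comparison with all genes depends on them. With both lists limited to −log10 q of at least 5, 7 of 17 DENND genes (41.2%) and 6 of 63 RAB genes (9.52%) had a shared locus, against 6.36% of all genes. With reciprocal overlap of at least 50% it was 41.2% and 19.0%, against 16.9%. Inside the gene alone it was 35.3% and 12.7%, against 15.9%. The limit of 5 kb passed between the summits of RAB5C, 3915 bp outside the gene, and those of RAB1B at 5102 bp (fold 2.18, replicate 3) and 5124 bp (fold 1.88, replicate 2). Next outside it was RAB19, with fold 4.69 at 5553 bp in replicate 3 and 3.17 at 5867 bp in replicate 2.

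**Figure D5:**
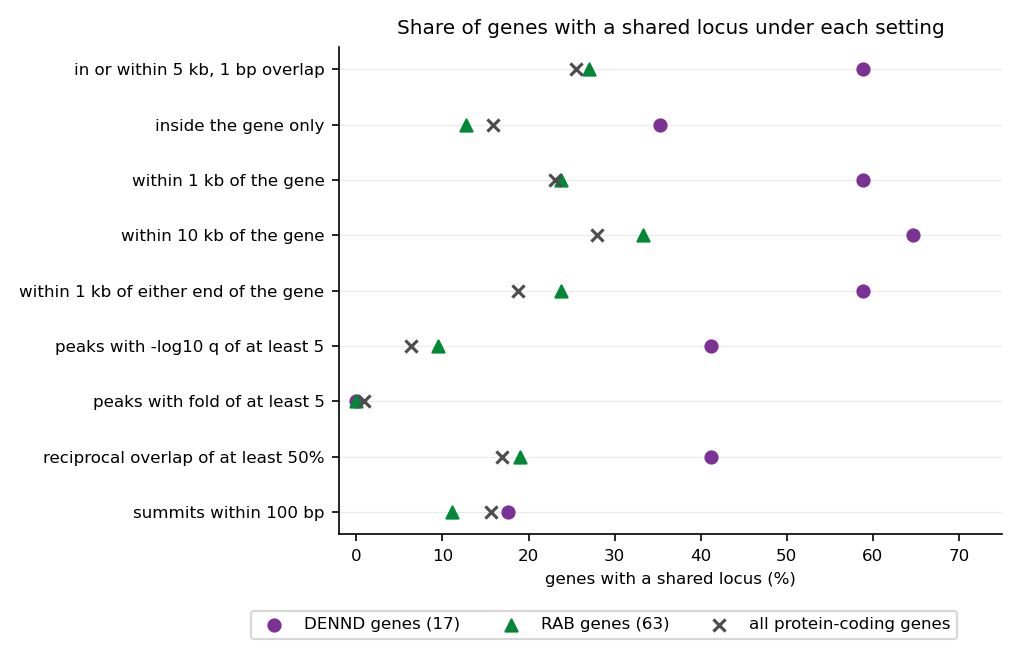
Percent of genes with a shared locus (x axis) under each setting (y axis) for DENND genes (circles), RAB genes (triangles) and all protein-coding genes (crosses). The DENND share lies above the others except with fold of at least 5 in both libraries, where no DENND or RAB gene is left, and it comes down to 17.6% with summits within 100 bp, beside 15.6% of all genes.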

How the data were processed

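ChIP-seq peak lists of 2 anti-FOXM1 libraries were used, each called on its own library. CASAVA 1.4, BWA, MACS2 2.2.7.1 and GRCh38 are named, with no role or order, per the submitters' processing notes; how reads were filtered and which control was used is not given in the sources used here. The lists held 8271 and 11502 peaks, of which 8230 and 11457 on chromosomes 1 to 22 and X were compared. Per peak, the authors deposited a fold (linear ratio over local background), a −log10 p and a −log10 q at the summit, a score (a multiple of −log10 q, not used) and the summit offset. The summit lists deposited by the authors held the same positions and −log10 q.

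Fragment counts were rebuilt from fold and −log10 p, taking p as a Poisson upper tail; 100% of peaks were matched within 0.001 in −log10 p, with 1 added above and below in the fold and counts scaled by 0.848 in replicate 2 and 0.869 in replicate 3. Counts simulated with the same formula and scale were recovered, which checks the inversion alone and not whether the deposited values follow the formula. Intervals are exact Poisson at 95% and cover counting error only. Total depth is unknown. Gene positions, starts and promoters came from RefSeq (GRCh38.p14), a table that does not match every gene.

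Members, gene lists and motifs were chosen with earlier results of these data known, and the count rebuilding was added after seeing them. Named in full were the 12 genes of highest lower fold, partner pairs, genes next to the 5 kb limit and leading genes of the pathway list; other members, named to account for each, were chosen after their values were seen. Alternatives covered the window, thresholds, overlap, each library alone, distance to the start and promoter length. Computations used Python 3.11.15, numpy 2.4.6, pandas 2.3.3, SciPy 1.17.1 and matplotlib 3.10.9.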

Additional observations from a re-analysis of the deposited data

How the results depend on the processing

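Counts of genes with a shared locus are given here in the order DENND and RAB genes together, DENND, RAB, other Rab machinery and all protein-coding genes, against 27, 10, 17, 44 and 5094. Inside the gene alone they were 14, 6, 8, 34 and 3167. With −log10 q of at least 5 they were 13, 7, 6, 9 and 1271, and 22 DENND and RAB genes had a peak in either library, against 49. With fold of at least 5 they were 0, 0, 0, 1 and 175, and 10 had a peak. With summits within 100 bp they were 10, 3, 7, 29 and 3120, and reciprocal overlap of at least 50% left 19, 7, 12, 31 and 3373. Stricter rules leave fewer peaks by construction. Windows of 1 kb and 10 kb and the gene ends alone kept every one of these counts within 1.5 times. With a library left out, 36 to 44 of the 80 genes had a peak; a shared locus needs both libraries and has no such value. Of 58 values under alternatives 37 stayed within these limits or, for shares, within the exact 95% binomial interval, and the other 21 were lower. No paired analysis was possible because the libraries form 1 group and no result came from a test. Summits rest on few fragments, a median of 26 in replicate 2 and 24.5 in replicate 3, so weak peaks may be missed.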
